A study of Drosophila melanogaster with 3 samples.

Results

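A series of 6 genes encodes the transcription factors that neuroblasts, which are the embryo's neural stem cells, switch on in turn: hb (hunchback), Kr (Krüppel), the neighbouring pair nub (nubbin) and pdm2 (POU domain protein 2), cas (castor) and grh (grainy head). The 6 genes were taken by name, out of 13945 protein-coding genes. A gene was counted as bound where a peak summit fell within its body or in the 1 kb before its start. The protein mapped was Prospero, a homeodomain transcription factor, with ChIP-seq (sequencing of the DNA that is precipitated with a protein) on whole embryos of Drosophila melanogaster, 2 to 18 h old and of both sexes. All embryos came from a transgenic line that stably expresses Prospero with a GFP fused to its C terminus, and the precipitation used an antibody against GFP. There were 3 biological replicates of this single group and no other genotype, stage or antibody. Each replicate has a list of 30000 peaks, a pooled list has 30000, and the optimal set, which the authors drew with a threshold on how well peak ranks recur between replicates, has 6215. No read counts are in these lists, so depth is unknown, and peak lists cannot be checked against tissue markers. Peaks were ranked by the authors' signal within each list, with rank 1 the strongest.

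Hunchback, Krüppel and Castor are zinc-finger proteins, Nubbin and Pdm2 are POU homeodomain proteins, and Grainy head belongs to the CP2 family. Each marks a window in the life of a neuroblast, and the neurons born in that window take a fate set by the factor then present. Hunchback comes first, Krüppel follows, then the Pdm pair and Castor, and Grainy head is kept in old neuroblasts and is also a factor of the epidermis. Prospero is shared out to the smaller daughter of each neuroblast division, where it enters the nucleus, represses stem cell and cell cycle genes and helps to switch on neuronal ones. The comparison made is therefore whether Prospero peaks lie differently at the late genes of the series, cas and grh, than at the early ones, hb and Kr, with nub and pdm2 between them.

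The sequences under 5 of the peaks are shown because they are the places on chromosome arms 2L and 3R where the strongest summit of nub, cas and hb, or the one closest to a start of pdm2, lay. Each is the plus strand, 5′ to 3′, of the RefSeq copy of the genome, in dm6 coordinates, and runs 100 bp to either side of the summit unless an annotated untranslated region cut it short. Capitals mark a match, on either strand, to the core of the Prospero homeodomain (AAGACG, or CGTCTT on the other strand) or to the GAGA factor motif (GAGAGA), where matches may overlap. None of the other 4 motifs that were searched was in these 5 stretches.
nub, strongest summit, chr2L:12623320-12623520: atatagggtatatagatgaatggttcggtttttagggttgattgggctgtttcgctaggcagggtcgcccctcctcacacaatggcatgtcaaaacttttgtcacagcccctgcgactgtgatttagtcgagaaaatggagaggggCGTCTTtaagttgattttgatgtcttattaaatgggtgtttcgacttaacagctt
pdm2, inner promoter summit, chr2L:12678414-12678603: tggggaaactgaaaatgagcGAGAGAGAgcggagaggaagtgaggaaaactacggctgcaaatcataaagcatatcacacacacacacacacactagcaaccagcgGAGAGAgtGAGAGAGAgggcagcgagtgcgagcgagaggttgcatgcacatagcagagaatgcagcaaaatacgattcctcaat
cas, promoter summit, chr3R:5716955-5717155: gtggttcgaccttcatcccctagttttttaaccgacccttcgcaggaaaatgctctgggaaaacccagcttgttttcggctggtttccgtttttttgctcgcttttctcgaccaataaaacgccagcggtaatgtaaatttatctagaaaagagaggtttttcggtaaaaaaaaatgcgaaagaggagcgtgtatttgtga
hb, strongest summit in its region, chr3R:8697823-8697965: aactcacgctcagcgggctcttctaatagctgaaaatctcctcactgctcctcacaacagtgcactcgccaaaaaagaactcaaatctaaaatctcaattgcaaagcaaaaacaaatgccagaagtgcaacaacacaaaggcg
hb, upstream summit outside its region, chr3R:8702435-8702635: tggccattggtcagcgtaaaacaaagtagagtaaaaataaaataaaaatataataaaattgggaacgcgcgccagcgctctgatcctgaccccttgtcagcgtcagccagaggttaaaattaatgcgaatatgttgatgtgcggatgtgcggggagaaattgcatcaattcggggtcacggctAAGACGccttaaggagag

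The nub stretch carried the Prospero core 46 bp to the right of its summit, and the stretch upstream of hb carried it 83 bp to the right. The window of the summit outside the region upstream of cas, at 5723350 (rank 2736 in the optimal set), held none of the motifs searched. The cas promoter and the hb promoter stretches shown had neither motif. The window of a weaker hb promoter summit, at 8698071 (rank 25472 in the pooled list), did hold GAGAGA. In the pdm2 promoter stretch the GAGA motif matched at 5 positions, some of them overlapping, the closest 6 bp from the summit. The windows of the stronger pdm2 summits, at 12681744 and 12681950, held none of the motifs searched.

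Of the 6 genes 5 were bound in the optimal set, with 5 summits at grh, 4 at Kr, 3 at nub, 3 at pdm2, 1 at cas and none at hb. Of all protein-coding genes 17.9% were bound by the same rule. Genes with longer regions were bound more often. Of genes whose region spans under 10 kb 12.1% were bound, and of the 3 members of that size Kr and cas were and hb was not. Of genes with a region over 25 kb 57.2% were bound, and all 3 members of that size (nub, pdm2 and grh) were. Regions ran from 4.83 kb at cas to 42.7 kb at grh. In the full replicate lists every member held at least 1 summit in each of the 3 replicates, where 45.6%, 45.4% and 49.4% of all protein-coding genes did in replicates 1, 2 and 3. The 16 summits at the members fell into 11 separate peak regions, since summits 200 bp or so apart often share a peak. In whole embryos a weak peak can come from few cells or from little binding per cell, and these cannot be told apart.

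**Figure D1:**
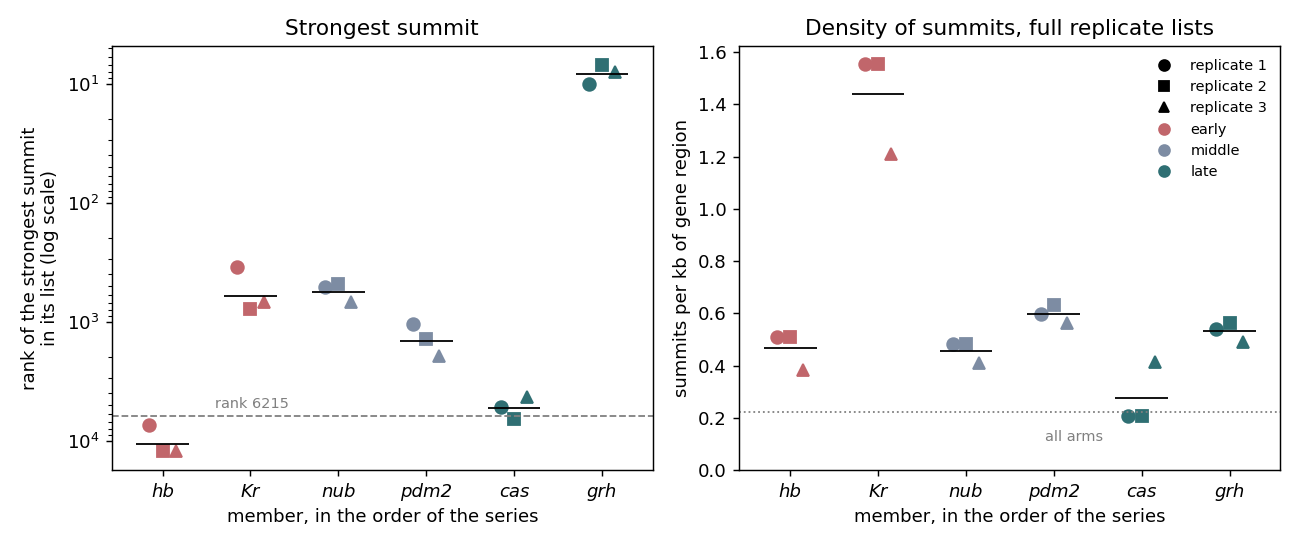
Each point is a replicate, each short line the mean of 3, and colour gives the stage. Left, rank of the strongest summit at each gene in the replicate's own list on a reversed log axis, with a dashed line at rank 6215. Right, summits per kb of gene region in the full list of 30000, with the density over all arms as a dotted line. The 3 values of grh sit at ranks 7 to 10, those of hb all lie below the dashed line, and Kr has the densest summits.

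Ordered by the mean rank of the strongest summit, the genes ran grh, nub, Kr, pdm2, cas and hb. Strongest of the 6 by far was grh, with ranks of 10, 7 and 8 in replicates 1, 2 and 3 (mean 8.33 ± 1.53, SD, n = 3). Next was nub, with 516, 484 and 690 (563 ± 111). Kr had 350, 788 and 686 (608 ± 229). The ranges of nub and Kr overlap, so their order does not exceed the spread between replicates. The strongest summit of pdm2 ranked 1053, 1396 and 1948 (1466 ± 452) and that of cas 5239, 6524 and 4293 (5352 ± 1120). At hb the ranks were 7451, 12206 and 12172 (10610 ± 2736). No replicate of pdm2 ranked as high as any of Kr, none of cas as high as any of pdm2, and none of hb as high as any of cas. Densities in the replicate lists, in summits per kb (mean ± SD, n = 3), ran from 1.44 ± 0.200 at Kr and 0.597 ± 0.0332 at pdm2 through 0.531 ± 0.0358 at grh, 0.468 ± 0.0736 at hb and 0.458 ± 0.0417 at nub to 0.276 ± 0.120 at cas. The density over all chromosome arms was 0.224 in each list, and cas lay on both sides of it, with 1, 1 and 2 summits. Only Kr stood apart from the rest in all 3 replicates. Among all genes, 6 had a stronger top summit than grh in the optimal set, against 346 for nub, 364 for Kr, 823 for pdm2 and 2085 for cas, out of 2502 bound genes.

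The earliest factor, hb, on 3R (gene from 8690980 to 8697822, minus strand), had no summit in the optimal set in its region, which reaches to 8698822. It has 2 promoters, an outer and an inner one, and the replicate lists held a weak summit at each. The outer summit, in the pooled list at 8697865 and 43 bp upstream of the outer start, was the strongest of hb and recurred in all 3 replicates. The inner one, at 8694364, lay 236 bp past the inner start and had ranks of 15480, 14761 and 12205. All 6215 summits of the optimal set are in the pooled list with the same signal. In that list the outer summit of hb had a signal of 171, which is 67.8% of the lowest signal in the optimal set (252). A much stronger summit lay outside the region, at 8702535, 4.71 kb upstream of the outer start. It ranked 709 in the optimal set and 692, 669 and 946 in the replicates (769 ± 154, SD, n = 3), and hb was the closest gene start. Another 4 optimal-set summits lay within 10 kb of hb, at ranks 3454 to 4229, and the start of another gene was closer to each of them.

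Kr, which follows hb in the series, had the most summits for its length. Its region on 2R (gene from 25226611 to 25231394, plus strand) held 9, 9 and 7 summits in replicates 1, 2 and 3, and its density lay above that of each other member in every replicate. Its strongest summit, at 25225791, lay 820 bp upstream of the Kr start. A further summit at 25226558, 53 bp upstream of the start, ranked 2978, 5397 and 2958 in the replicates (3778 ± 1402). The third, at 25231013, was in the 3′ UTR, 4402 bp past the start (ranks 4349, 5839 and 5950). The fourth, at 25225994, shared a peak with the first and varied most, with ranks of 10990, 4680 and 12581. The whole Kr gene lies inside CG9380, a gene of 71.7 kb on the other strand, in a stretch with no CG9380 exon, so by position alone none of these summits can be assigned to Kr rather than to CG9380. Outside the region, 1.70 kb past the end of the gene and also inside CG9380, the optimal set had a summit at 25233092 with rank 2353, stronger than 3 of the 4 counted for Kr. Kr was its closest gene start. Another 3 lay within 10 kb on that side, at ranks 3700 to 5673.

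The Pdm genes are neighbours on 2L and both are transcribed from the plus strand. The nub gene, from 12587625 to 12628135, had 20, 20 and 17 summits in the replicates, and pdm2, from 12657165 to 12686306, had 18, 19 and 17. Both had their strongest summit deep in the gene and not at the outermost start. At nub it lay at 12623420, in an intron, 35.8 kb past the outermost start and 4.64 kb past the nearest of its 3 starts. A second summit at 12623619, in the same peak, was unstable, with ranks of 1496, 6423 and 28366. The other optimal-set summit of nub, at 12614973 in an intron, ranked 4711, 3717 and 7070. All 3 lie in an intron of Ref2, annotated on the other strand, and cannot be assigned by position. At pdm2 the strongest summit, at 12681744, was intronic and lay 3.14 kb past the nearest start, 24.6 kb past the outermost one. The summit at 12681950 is in the same peak. In replicates 1 and 2 it was matched to the same, stronger summits as its neighbour. Nearer and weaker summits lay at 12682022 in replicate 1 (rank 6821) and at 12682038 in replicate 2 (rank 7976). The third optimal-set summit, at 12678514, lay 90 bp upstream of the innermost of the 4 pdm2 starts and ranked 4453, 7000 and 5093 (5515 ± 1325, SD, n = 3). Nepl7, which is annotated inside pdm2, held none of these summits. Outside the regions the optimal set had a summit 8.31 kb upstream of nub, at 12579311 (rank 6039), with nub the closest gene start. It had another 0.584 kb past the end of pdm2, at 12686890 (rank 4816), which had no match in replicate 1. The 29.0 kb between the pair held no optimal-set summit, and 7, 5 and 9 summits of the replicate lists.

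The late pair differed widely. The cas gene, on 3R from 5712975 to 5716805 (minus strand), had a single optimal-set summit, at 5717055, in its promoter 250 bp upstream of the start. It stood at rank 4903, with a signal 119% of the lowest in the set. In replicates 1, 2 and 3 the strongest summit at cas lay 306, 250 and 139 bp upstream of the start, and replicate 3 had a weaker one at 338 bp. Its body held no summit in any replicate list. A stronger summit lay 6.545 kb upstream, at 5723350, outside the region, with rank 2736 in the optimal set and 2903, 1913 and 3873 in the replicates (2896 ± 980, SD, n = 3), and cas was the closest gene start.

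The summits of grh, on 2R from 17801132 to 17842820 (plus strand), ran from rank 9 to rank 4820 in the optimal set. The strongest, at 17804842, was in an intron 1.98 kb past the nearest of 5 starts and stood at rank 9 in the optimal set. Its peak was 1639 bp wide. Each replicate list had a further strong summit some 200 bp to its right, at ranks 22, 15 and 61, and the optimal set had none there. A pair of summits in another peak lay just upstream of an inner start. That at 17801871, 375 bp upstream, ranked 521, 648 and 724 (631 ± 103), and it also lies in the antisense gene asRNA:CR45270. That at 17802074 was 172 bp upstream, at rank 1723. In replicate 2 both were matched to a single summit, at 17801998. The last 2 were intronic. The summit at 17833578, 10013 bp past the nearest start, ranked 1718, 2983 and 1875 (2192 ± 690), and that at 17815743, 1.40 kb past a start, ranked 5930, 4836 and 5802 (5523 ± 598). In each replicate 6 summits of grh were among the 6215 strongest. In the pooled list 7 of the 27 grh summits lay within an annotated roo transposable element that overlaps the gene, and none of the optimal-set summits did. Outside the region, 6.41 kb past the gene and inside Orai, the optimal set had a summit at rank 5739.

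**Figure D2:**
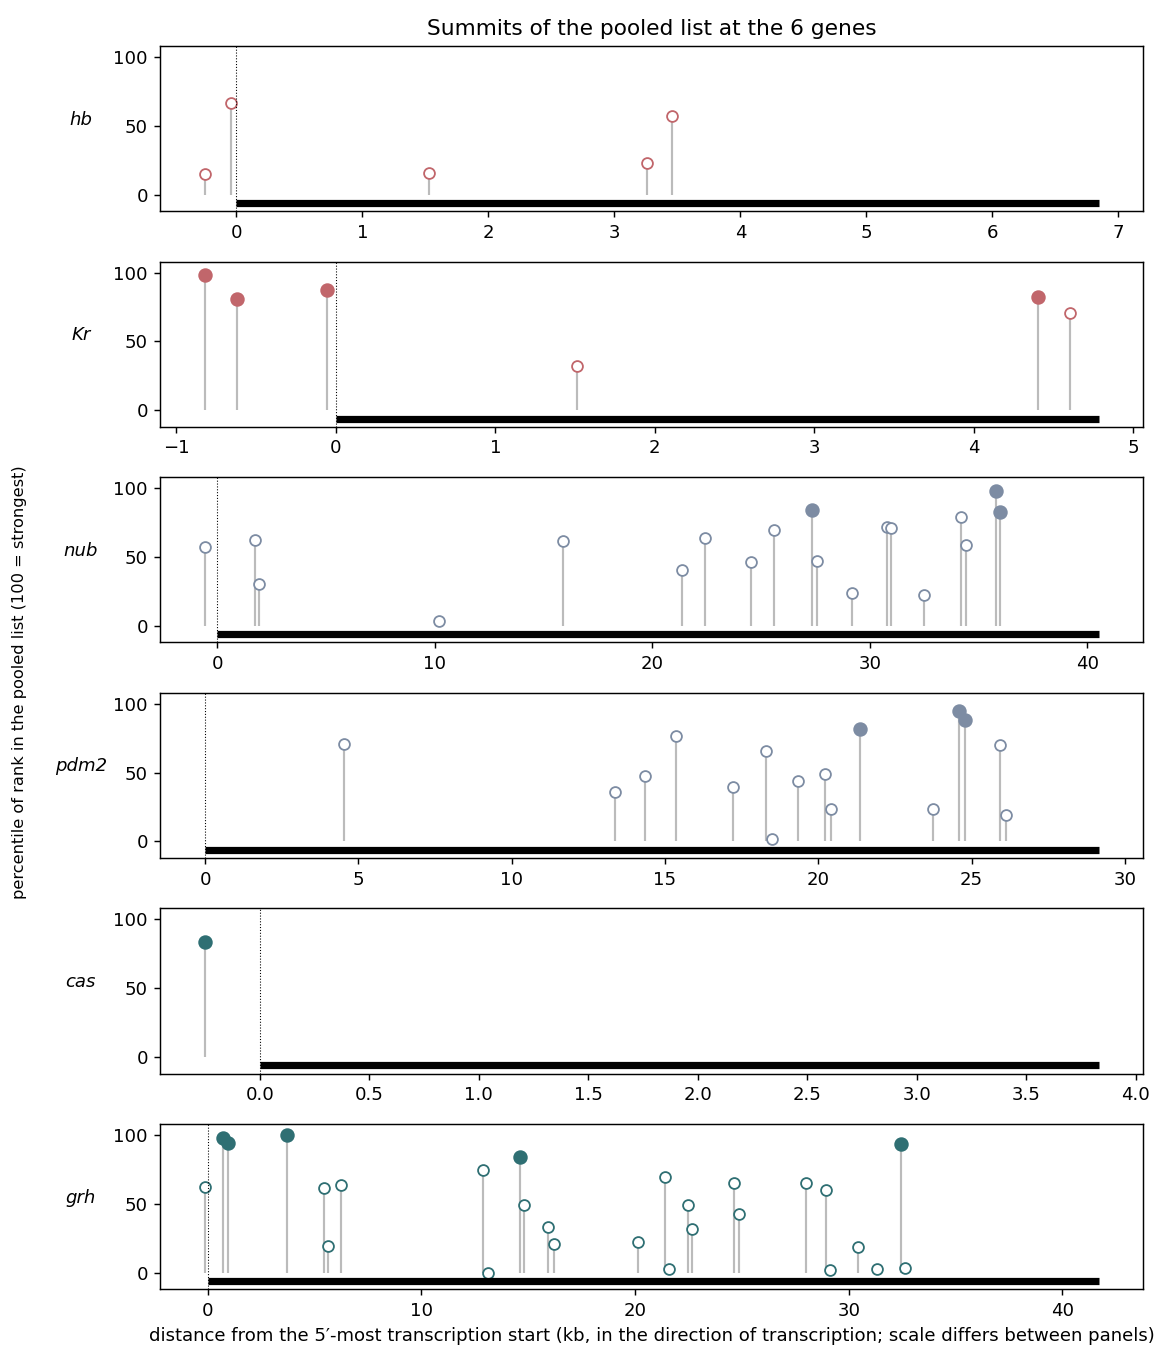
Summits of the pooled list at each gene, by distance from the outermost start in kb (the black bar is the gene body, and the scale differs between panels). The height is the percentile of rank in the pooled list, 100 being the strongest, and filled points belong to the optimal set. The filled points of nub and pdm2 lie towards the far end of the gene, that of cas lies before the start, and hb has open points alone.

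Across the 16 optimal-set summits, 8 were intronic, 5 lay at a promoter (within 500 bp of a start of the gene), 2 were further upstream and 1 was in a 3′ UTR. These places were not counted over the whole optimal set, so whether the members differ from it in this was not tested. All 8 intronic ones were at the 3 long genes, nub, pdm2 and grh. At Kr and cas the optimal-set summits were at or upstream of the start, except the 3′ UTR summit of Kr. All 16 had a summit within 150 bp in each of the 3 full replicate lists (exact binomial 95% interval 79.4% to 100%, counting error only), as did 94.4% of the whole optimal set. Within the 6215 strongest peaks of each replicate 11 of the 16 did (68.8%), as did 63.5% of the set. The 5 others were at Kr (25225994), nub (12614973 and 12623619), pdm2 (12678514) and cas (5717055). Of the 11, the pdm2 summit at 12681950 was matched in replicates 1 and 2 only through its stronger neighbour. With summits required to lie within 50 bp, 6 of 16 were matched (37.5%), as were 53.0% of the set. The optimal set was drawn from the pooled reads of the same replicates, so these shares are not independent evidence.

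Late and early genes differed in opposite directions by density and by rank. In density the late genes were lower. Per kb of region, cas and grh together had 0.505, 0.526 and 0.484 summits in replicates 1, 2 and 3 (0.505 ± 0.0210, SD, n = 3), against 0.954, 0.954 and 0.734 at hb and Kr together (0.881 ± 0.127). The late and early values did not overlap. The difference was -0.38 ± 0.11 per kb and was below 0 in all 3 replicates. By strongest summit the late genes were higher in the regions used here. Without the 1 kb upstream they came out lower, but there cas had no summit and was given percentile 0. The mean percentile of rank (100 is the strongest) of the top summits was 91.3, 89.1 and 92.8 at cas and grh (91.1 ± 1.87, SD, n = 3), against 87.0, 78.3 and 78.6 at hb and Kr (81.3 ± 4.93). Here too the values did not overlap. That difference was 9.76 ± 5.08 percentile points and was above 0 in all 3 replicates. Both gave an exact sign-flip permutation p of 0.25 (two-sided), the smallest that 3 replicates allow, so neither could pass a threshold of 0.05. The test and the SDs cover spread between replicates at these fixed genes. They do not cover spread between genes, so late factors in general were not tested against early ones. The middle genes, nub and pdm2, had a density of 0.516 ± 0.0369 per kb (SD, n = 3), close to the late one. Their mean percentile of 96.6 ± 0.916 was the highest of the 3 stages in each replicate.

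Neither contrast held for every pair of genes. The early density came mostly from Kr, and the late density mostly from grh. Of the late 47.5 kb, grh made up 42.7 kb. It held 23 of 24, 24 of 25 and 21 of 23 late summits in replicates 1, 2 and 3. Against hb alone (0.468 ± 0.0736 per kb) the late difference was 0.0375 per kb and had no common sign in the replicates. By rank the late genes stood above hb by 26.4 percentile points and below Kr, with a difference of -6.91. Of the late pair, grh was 18.7 points above the early mean, and cas was 0.86 above it, with 1 of 3 replicates positive. With the gene body alone, the rank difference was -17.5 points and below 0 in all 3 replicates. There the strongest summits of hb and Kr, which lie upstream of the body, were lost. The top percentiles left in replicates 1, 2 and 3 were 48.4, 50.8 and 59.3 at hb and 85.5, 80.5 and 80.2 at Kr. At cas there was no summit and percentile 0 was given, while the top summit of grh lies in the body and was unchanged. The -17.5 therefore rests on the value given to cas and does not measure weaker summits at the late genes. Where the region ran 5 kb to both sides of the gene, which brings in the summit upstream of hb, the rank difference reversed to -5.97. The genes within the late and the early stage lay further apart than the means of these stages did. The strongest summits of grh and cas were 17.8 ± 3.73 percentile points apart and those of Kr and hb 33.3 ± 8.37 (SD, n = 3), while nub and pdm2 were 3.01 apart.

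**Figure D3:**
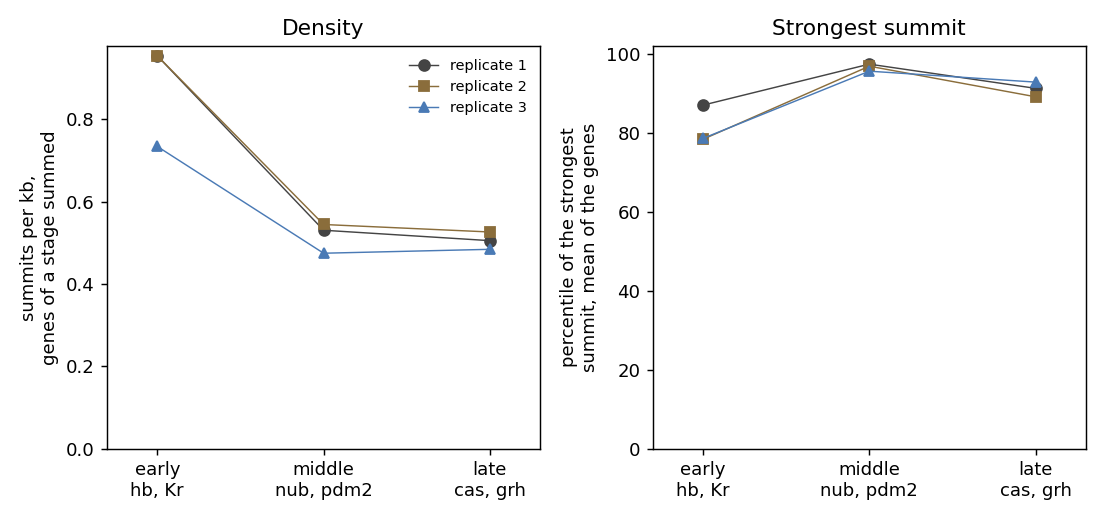
Left, summits per kb of gene region summed over the genes of a stage. Right, the percentile of rank of the strongest summit, averaged over the genes of a stage, where 100 is the strongest. Each line is a replicate. The early stage is the densest and has the lowest percentile in all 3 replicates.

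Of the 16 optimal-set windows that reach 100 bp to either side of the summit, 4 held the Prospero core AAGACG, against 11.3% of the windows of the whole set and 5.13% of windows 500 bp to either side. They were the strongest summits of grh and nub, the intronic grh summit at 17833578 and the 3′ UTR summit of Kr. The core lay 46 to 83 bp from these 4 summits, so of windows that reach 50 bp to either side none of the 16 held it (6.85% of the whole set did). GAGAGA was in 5 windows, 3 of them at grh, against 19.9% of the set. The core site of Zelda (CAGGTA), a pioneer factor of the early embryo, was in 2 windows against 6.28%, and the E-box CAGCTG, a site of proneural factors, in 1 against 11.6%. The sites of Grainy head (ACCGGTT) and of POU factors (ATGCAAAT) were in none, against 1.48% and 2.27% of the set. At most 3 motifs were in any window, and 9 of the 16 windows had none of the 6. Matches are descriptions of these letters and not sites. Median GC content was 44.8% at the members and 46.8% over the set.

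Other genes that time neural development were also bound. Of 21 such genes 19 had a summit in the optimal set (90.5%), with a median of 3 summits, as for the 6 members, whereas 17.9% of all genes had one. These 21 were chosen by known role with earlier results on some of them in view. Several are long, and of all genes with a region over 25 kb 57.2% were bound, against 12.1% of those under 10 kb. The regions of lin-28, dan, danr, nab, sqz, slp1, slp2, D and tll span under 10 kb, and each of these genes was bound. Syp and Eip93F, which had no summit in the optimal set, have regions of 55.0 and 66.4 kb. The nuclear receptor gene svp, which ends the Hunchback window, had 3 summits, the strongest at ranks 3707, 3870 and 3825 in the replicates. Both dan and danr, which encode nuclear proteins linked to the competence of neuroblasts, were bound, with 4 and 2 summits and top ranks of 274 and 2225 in the optimal set. Among the subtemporal genes, which act after cas in the nerve cord, sqz, nab and kn were all bound, with 1, 4 and 4 summits, and nab ranked highest of them, at 358. All 7 genes of the optic lobe series were bound (hth, klu, ey, slp1, slp2, D and tll), led by hth, with 27 summits, at rank 98. Both ham and opa, of intermediate progenitors, were bound. Of 6 later timing genes, lin-28 (rank 161), chinmo (258), Imp (506) and br (948) were bound. Syp, which encodes an RNA-binding protein of late neuroblasts, and Eip93F, an ecdysone-induced factor, were not. In the replicate lists Syp had 3 summits each, the strongest at 7091, 14843 and 8884, and Eip93F had 1 in replicate 3 alone, at 27708.

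Placed among these genes, grh had the strongest top summit of all 27, in each of the 3 replicates. The closest was hth, at 112, 79 and 131. At the other end, hb had the lowest-placed mean of the 26 genes with a summit in all 3 replicates, with Syp next above it, and the replicate ranges of hb and Syp overlapped. The ranks of cas overlapped those of sqz (5029, 4616 and 8427).

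**Figure D4:**
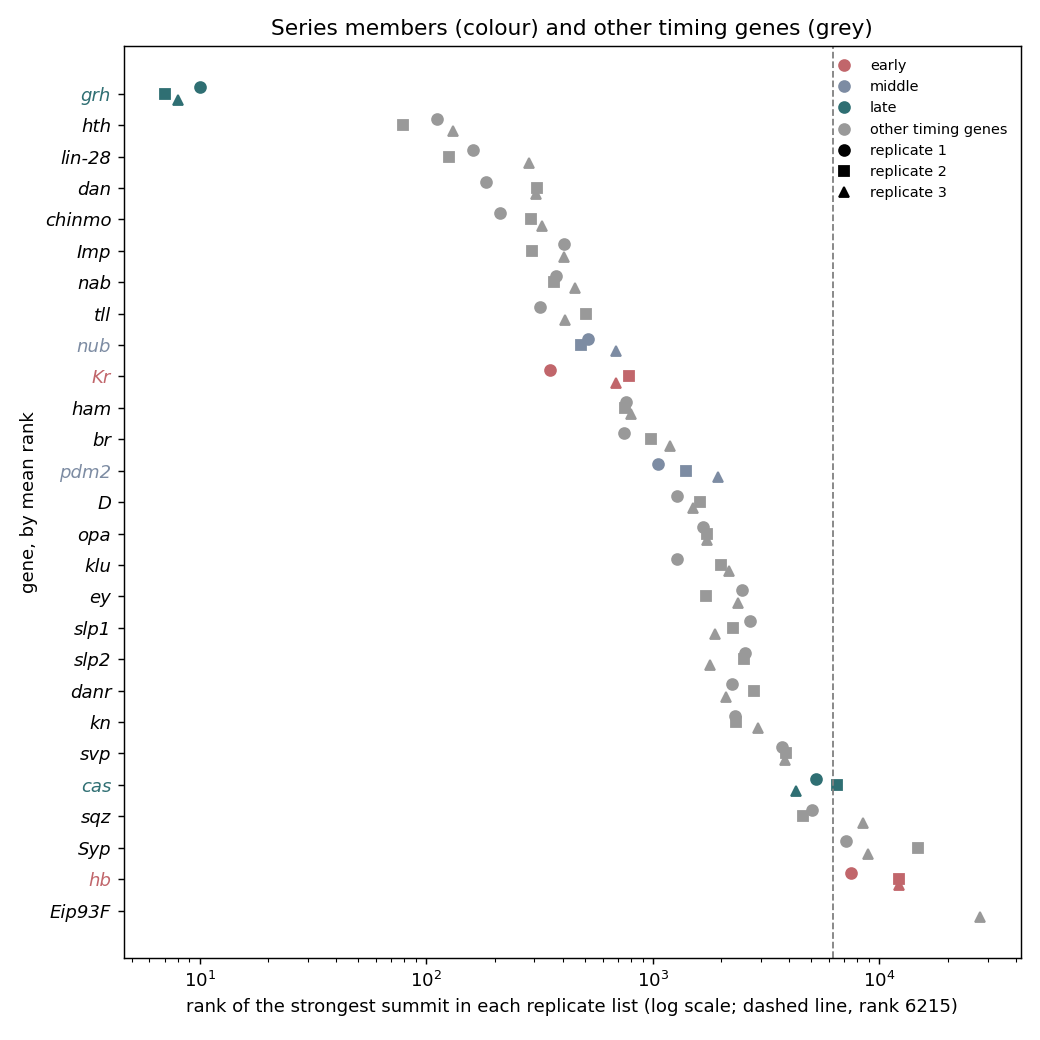
Rank of the strongest summit in each replicate list (log axis, dashed line at rank 6215) for the 6 series members in colour and 21 other timing genes in grey, ordered by mean rank. Markers give the replicate. The points of grh lie apart at ranks 7 to 10, nub, Kr and pdm2 lie in the middle of the field, and hb and cas lie near the far end.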

How the data were processed

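Binding was measured by ChIP-seq in 3 biological replicates of 1 group. The labels do not say how the embryos were collected, so spreads between replicates may be partly technical. The authors deposited peak lists in narrowPeak format on dm6. Per the deposited file descriptions, each replicate list came from that replicate's alignments and a control, the pooled list from the alignments of all 3, and the optimal set from these lists with an irreproducible discovery rate threshold. The sources used here name no aligner, peak caller, filter or threshold value. The deposited signal of each peak, on a scale not stated, served to rank peaks within a list, and signals were compared only within a list or between the optimal set and the pooled list, which give each shared summit the same signal. The deposited −log10 q-value was not used to rank, since it is equal for all peaks of the optimal set. The replicate and pooled lists hold 30000 peaks each, and without read counts the depth behind them is unknown. The descriptions' anti-GFP antibody was followed where a label reads pros, and the age in the source names where a label gives an impossible number of hours. The control was not analysed here. Neighbouring summits were never closer than 199 bp in any list.

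The summit is the peak start plus the deposited offset, given 1-based. Genes came from Ensembl release 115 (BDGP6, dm6 coordinates), and all 6 members have the same coordinates in RefSeq. Summits were matched within 150 bp to the strongest summit of the other list, so neighbours can share a match. Late (cas, grh) and early (hb, Kr) genes were compared within each replicate by an exact sign-flip permutation test. A gene with no summit was given percentile 0. The share of matched summits has an exact (Clopper-Pearson) interval. Motifs were searched on both strands. Gene assignment was tested on simulated data. The members, gene list, motifs and tests were chosen with earlier results of these data known. Named genes are the 6 members, the genes that overlap them, and from the list of 21 the bound leaders and the genes without a summit. The other listed genes are named to account for the whole list, after their values were seen. Alternatives were the region, the peaks used, the grouping of the genes, the match distance, the window and each replicate left out. Software was Python 3.11.15, pandas 2.3.3, NumPy 2.4.6 and SciPy 1.17.1.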

Additional observations from a re-analysis of the deposited data

How the results depend on the processing

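The size of the density difference (-0.38 per kb) depended on the choices made. It was -0.07 with nub and pdm2 among the early genes, -0.10 among the strongest peaks, -0.18 with the gene body alone, -0.23 with 1 summit per peak region, -0.60 with cas as the only late gene, -0.94 against Kr alone and 0.0375 against hb alone. The rank difference of 9.76 points became -17.5 with the gene body alone, where cas has no summit and was given percentile 0. It was -5.97 with 5 kb added on both sides and -6.91 against Kr alone. It was 2.11, above 0 in 2 of 3 replicates, with nub and pdm2 among the early genes. It was also -5.97 with a 10 kb window on the outermost start of every gene, an alternative added after seeing the data, under which the density difference was -0.33. Leaving out each replicate in turn gave densities of -0.44 to -0.34 and rank differences of 7.51 to 12.5 points. Causes were not tested.

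Counted over summits that lie in no other annotated gene, also added after seeing the data, 3 of 6 members were bound (pdm2, cas and grh). The 10 kb window gave 4 (hb, Kr, cas and grh), the body alone 4 (cas was lost), the stronger 50% of the set gave 4 and 5 kb on both sides gave 6. Among peaks matched in the strongest of both other replicates, leaving out a replicate gave 4, 5 and 4, and cas was lost without replicate 1 and without replicate 3. The share of all protein-coding genes was not counted under these alternatives. Their member counts therefore cannot be set beside the 17.9% of the main rule. The share of member summits matched in all replicates was 37.5% within 50 bp and 68.8% among the strongest peaks. With windows of 50 bp to either side GAGAGA was in 3 and AAGACG in 0. The RefSeq gene models of the members are identical, so they could change nothing. Late and early genes were compared within each replicate, and with a single group there was no other pairing to try. With no read counts, depth limits on weak summits such as those of hb cannot be given.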
